A study of Homo sapiens with 42 samples.

Results

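The 10 genes described here make eicosanoids, lipid mediators derived from arachidonic acid, or encode receptors for them: PTGS1, PTGS2, PTGES, TBXAS1, ALOX5, ALOX5AP, LTA4H, LTC4S, PTGER2 and PTGER4. They were taken by symbol from the 18417 genes that had a probe set with a single gene symbol, each gene read by its brightest such probe set. Of the 10 genes, 9 had one. LTC4S shares both of its probe sets with MAML1 and was not analysed here. RNA came from HL-60 cells, a human acute myeloid leukemia line, and was read on 42 microarrays (Affymetrix Human Gene 1.0 ST) in 14 groups of 3. The study asked how loss or inhibition of EZH2, the methyltransferase that places the repressive mark H3K27me3, changes the response of these cells to all-trans retinoic acid (ATRA), which drives them toward granulocytes.

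In the inhibitor experiment (18 arrays, 6 groups) cells received HKMTI-1-005 (2.5 µM), a compound directed at both EZH2 and the H3K9 methyltransferases EHMT2 and EHMT1, GSK343 (10 µM), an inhibitor of EZH2, or no inhibitor, each with or without ATRA (0.1 µM) for 72 h, and cells with neither are called untreated. In the knockdown experiment (24 arrays, 8 groups) cells carried shEZH2#1 or shEZH2#2, hairpins against EZH2, or the non-targeting hairpin Scr, or were not transduced (WT), again with or without ATRA. The hairpin groups are pools of lentivirus-transduced cells selected in puromycin, a treatment that WT cells are not described as sharing. EZH2 KD below means the average of shEZH2#1 and shEZH2#2. The arrays of a group are described as biological triplicates, and no label says whether they came from separate cultures, so p-values measure the spread between these arrays only.

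Prostanoids and leukotrienes are the main branches of eicosanoid synthesis. Phospholipases free arachidonic acid from membranes, cyclooxygenases (PTGS1, the largely constitutive form, and PTGS2, the inducible form) turn it into prostaglandin H2, and terminal synthases such as PTGES (microsomal prostaglandin E synthase) and TBXAS1 (thromboxane A synthase) set the product. In the other branch ALOX5 (5-lipoxygenase), aided by its membrane partner ALOX5AP, makes leukotriene A4, which LTA4H hydrolyses to the neutrophil attractant leukotriene B4 and LTC4S conjugates to leukotriene C4. PTGER2 and PTGER4 are the prostaglandin E2 receptors EP2 and EP4, both coupled to cyclic AMP. Neutrophils and their precursors are known for the leukotriene branch in particular.

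Values below are log2 levels as deposited. A level of one probe set is not compared with that of another. Differences are log2 differences between group means from 1 limma fit of all 42 arrays, with p-values adjusted over 18417 genes. A gene was called where the adjusted p was 0.05 or less, the fold 1.3 or more and its mean among the top 40% of genes (7367 genes, lowest mean 6.88), the thresholds of the study's methods. PTGS2, ALOX5, ALOX5AP, LTA4H, PTGER2 and PTGER4 lay in the top 40%. PTGES (mean 6.70), PTGS1 (mean 6.36) and TBXAS1 (mean 5.16) lay below it and could be tested but not called, so for these 3 genes a difference is said to pass the test without the expression filter. All 9 genes had 1 probe set each, among them 8164580 for PTGES, 8157650 for PTGS1, 7922976 for PTGS2, 7968344 for ALOX5AP, 7927215 for ALOX5, 8105067 for PTGER4 and 8136557 for TBXAS1.

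EZH2 itself, the check of the knockdown, averaged 9.28 ± 0.190 with shEZH2#1 and 9.29 ± 0.291 with shEZH2#2, against 10.36 ± 0.0943 with Scr and 10.02 ± 0.279 in WT cells (SD, n = 3 each). The log2 difference of EZH2 KD was -1.08 (standard error 0.134, adjusted p = 1.72e-05) against Scr and -0.74 (standard error 0.134, adjusted p = 0.00475) against WT. Of 8 measured markers of myeloid progenitors 7 lay in the top 40%, KIT being the exception, and of the megakaryocyte (7 measured), lymphoid (6) and erythroid (3) lists none did. Array medians ran from 5.36 to 5.46 in the inhibitor experiment. In the knockdown experiment 6 arrays (Scr replicates 1 and 2, Scr+ATRA replicate 3, WT+ATRA replicate 3, shEZH2#1 replicate 1 and shEZH2#2 replicate 2) had medians of 5.47 to 5.56, against 5.31 to 5.44 for the other 18. For several results of the members that use them, values without them are given too, but not for the wider list. That fit leaves 1 Scr array, so where it uses Scr only the size of the difference is given.

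RefSeq (GRCh38.p14) gave a promoter window, from 250 bases before to 50 after the start, for 9 of the 10 genes (10 windows, PTGS1 having 2 starts); none was taken for ALOX5. Those of PTGES, PTGS1, ALOX5AP, PTGS2 and TBXAS1, the genes that carry the main ATRA and inhibitor results, are printed from 5′ to 3′ along the gene, with capitals for any of 4 motifs on either strand. The motifs were AGGTCA, the core repeat of nuclear receptor sites, GGGCGG, the GC box, TATAAA, the TATA box, and GAGGAA, a core found in sites of the myeloid factor PU.1. The windows are PTGES (chr9:129752993-129753292, minus strand), PTGS1 start 1 (chr9:122370283-122370582, plus strand) and start 2 (chr9:122375052-122375351, plus strand), ALOX5AP (chr13:30713235-30713534, plus strand), PTGS2 (chr1:186680374-186680673, minus strand) and TBXAS1 (chr7:139829014-139829313, plus strand).
PTGES: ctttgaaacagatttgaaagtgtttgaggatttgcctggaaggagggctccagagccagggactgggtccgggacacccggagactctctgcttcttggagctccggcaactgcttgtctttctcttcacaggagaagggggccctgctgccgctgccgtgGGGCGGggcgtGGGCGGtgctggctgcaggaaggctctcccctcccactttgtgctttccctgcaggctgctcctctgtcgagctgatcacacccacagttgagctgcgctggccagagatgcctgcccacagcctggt
PTGS1 start 1: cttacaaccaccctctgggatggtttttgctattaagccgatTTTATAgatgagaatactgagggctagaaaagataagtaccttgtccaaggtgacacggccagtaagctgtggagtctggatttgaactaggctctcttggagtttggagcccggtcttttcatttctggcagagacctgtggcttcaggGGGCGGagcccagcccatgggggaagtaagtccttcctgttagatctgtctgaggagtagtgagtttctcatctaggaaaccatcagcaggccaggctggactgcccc
PTGS1 start 2: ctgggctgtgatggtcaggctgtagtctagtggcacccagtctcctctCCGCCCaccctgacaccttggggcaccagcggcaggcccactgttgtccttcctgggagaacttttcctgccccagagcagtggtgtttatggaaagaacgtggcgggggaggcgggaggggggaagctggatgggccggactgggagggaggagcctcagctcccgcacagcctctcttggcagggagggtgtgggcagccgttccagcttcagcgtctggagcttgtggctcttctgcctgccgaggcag
ALOX5AP: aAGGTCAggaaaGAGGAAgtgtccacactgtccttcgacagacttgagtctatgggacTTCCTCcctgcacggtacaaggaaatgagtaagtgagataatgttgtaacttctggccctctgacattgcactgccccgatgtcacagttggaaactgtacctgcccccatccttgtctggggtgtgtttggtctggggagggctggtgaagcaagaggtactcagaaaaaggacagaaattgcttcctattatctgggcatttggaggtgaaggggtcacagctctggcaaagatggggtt
PTGS2: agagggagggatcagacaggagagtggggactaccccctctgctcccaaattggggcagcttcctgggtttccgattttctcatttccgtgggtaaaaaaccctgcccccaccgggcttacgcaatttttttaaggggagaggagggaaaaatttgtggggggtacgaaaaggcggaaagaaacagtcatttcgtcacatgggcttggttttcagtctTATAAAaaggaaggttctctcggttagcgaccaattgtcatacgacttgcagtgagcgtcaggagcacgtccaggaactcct
TBXAS1: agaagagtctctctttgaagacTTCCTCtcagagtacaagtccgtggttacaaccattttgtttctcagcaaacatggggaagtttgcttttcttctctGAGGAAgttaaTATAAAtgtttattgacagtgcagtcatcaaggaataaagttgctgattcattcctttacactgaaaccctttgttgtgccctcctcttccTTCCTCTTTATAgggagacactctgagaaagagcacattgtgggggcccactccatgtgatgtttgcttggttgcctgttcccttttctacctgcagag

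AGGTCA stood in 1 of the 10 windows, that of ALOX5AP, at -249 from the start, against 13.8% of all 35116 promoter windows in the table. GGGCGG stood in 6 of 10, against 45% of all windows, and the PTGES window held it at -89 and -78. TATAAA stood in 3 of 10, against 11.5% of all windows. The PTGS2 window held it at -32. GAGGAA stood in 3 of 10, against 27.9% of all windows, with 2 copies for ALOX5AP and 3 for TBXAS1. In the TBXAS1 window a GAGGAA and a TATAAA, both on the minus strand, abut in 1 capital run without overlapping. These are matches of letters only.

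**Figure D1:**
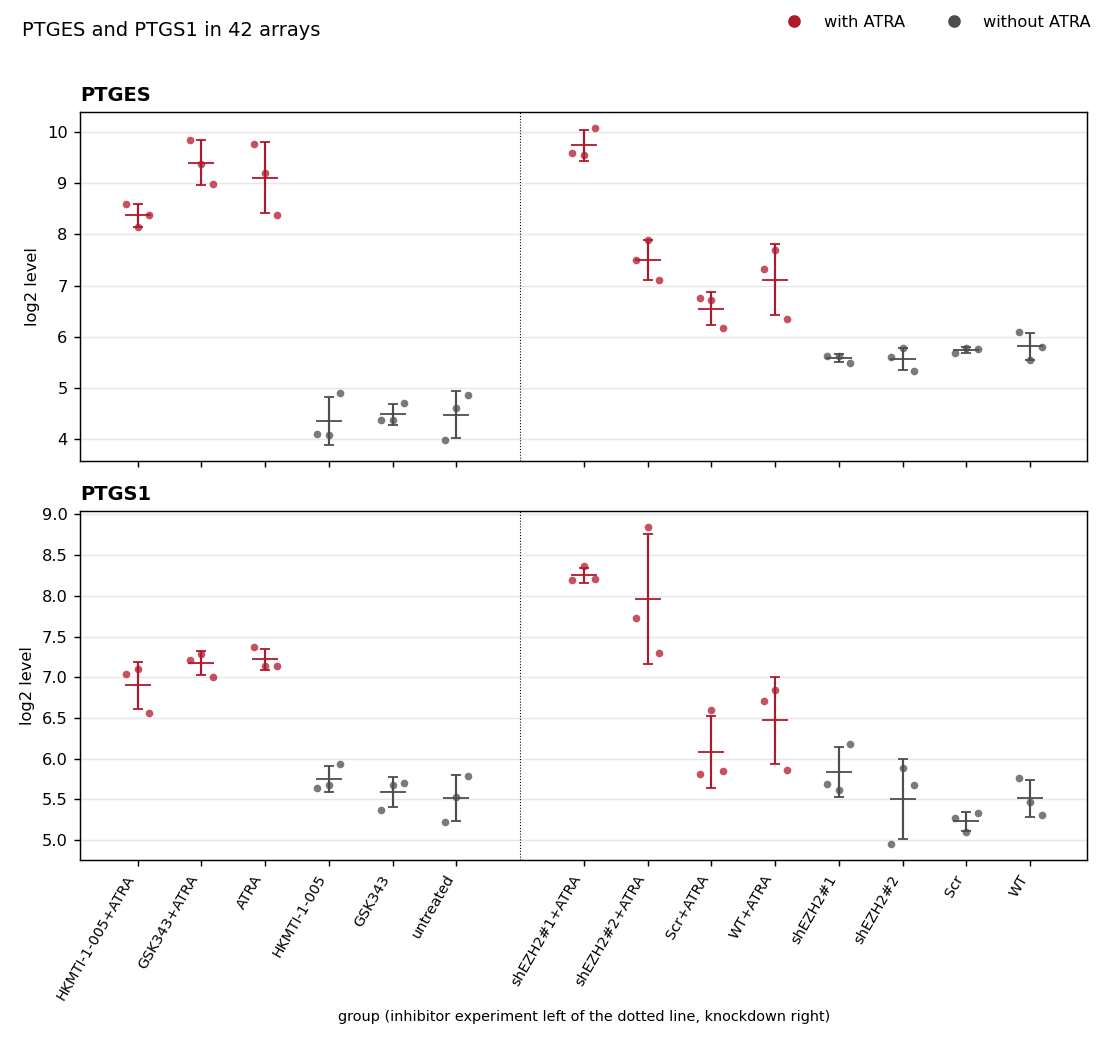
Log2 level (y axis) of PTGES and PTGS1 in each of the 42 arrays by group (x axis), the 18 inhibitor arrays left of the dotted line and the 24 knockdown arrays right of it; points are arrays, bars the mean ± SD (n = 3), and red marks ATRA. PTGES lay between 8.14 and 9.85 in all ATRA groups of the inhibitor experiment and between 3.98 and 4.90 in the groups without it.

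PTGES had the widest range of group means of the 9 genes, with 9.74 ± 0.294 in shEZH2#1+ATRA cells at the top and 4.36 ± 0.471 in HKMTI-1-005 cells at the bottom (SD, n = 3 each). In the inhibitor experiment ATRA moved it in every setting. The log2 levels were 9.76, 9.20 and 8.37 in ATRA cells, against 3.98, 4.60 and 4.86 in untreated cells. With GSK343 they were 9.85, 9.38 and 8.98 with ATRA and 4.37, 4.37 and 4.71 without. With HKMTI-1-005 they were 8.59, 8.14 and 8.38 with ATRA and 4.10, 4.08 and 4.90 without. In all 3 settings each ATRA array lay more than 3 log2 units above every array without ATRA. The log2 difference was 4.63 (standard error 0.304, adjusted p = 2.95e-12) without inhibitor (24.8-fold), 4.92 (standard error 0.304, adjusted p = 1.65e-12) with GSK343 (30.2-fold) and 4.01 (standard error 0.304, adjusted p = 5.5e-11) with HKMTI-1-005 (16.1-fold), each passing the test without the expression filter. In bulk RNA a larger share of cells with a transcript and more of it per cell cannot be told apart.

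PTGS1, the cyclooxygenase upstream of PTGES, was also higher with ATRA in these settings, by less. Its levels were 7.37, 7.14 and 7.14 in ATRA cells, against 5.22, 5.53 and 5.79 in untreated cells, with no overlap. With GSK343 they were 7.22, 7.29 and 7.00 with ATRA and 5.38, 5.68 and 5.71 without, and with HKMTI-1-005 7.04, 7.10 and 6.56 with ATRA and 5.64, 5.67 and 5.94 without. The groups were apart there too. The ATRA differences were 1.71 (standard error 0.278, adjusted p = 0.000109) without inhibitor, 1.58 (standard error 0.278, adjusted p = 0.000373) with GSK343 and 1.15 (standard error 0.278, adjusted p = 0.0137) with HKMTI-1-005. The HKMTI-1-005 difference missed the threshold without replicate 1 or 2 of either HKMTI-1-005+ATRA or HKMTI-1-005 (adjusted p of 0.0694 to 0.087). Neither inhibitor gave an adjusted p past the threshold for either gene. GSK343 moved PTGES by 0.0036 alone (95% interval -0.62 to 0.62) and by 0.29 with ATRA (95% interval -0.33 to 0.91). HKMTI-1-005 with ATRA gave PTGES levels of 8.37 ± 0.227, against 9.11 ± 0.699 with ATRA alone, a log2 difference of -0.74 (95% interval -1.36 to -0.12, adjusted p = 0.32). Against GSK343+ATRA, a comparison of unequal inhibitor doses, it was -1.03 (adjusted p = 0.105) with no overlap of the arrays.

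The ATRA difference of PTGES was uneven across the knockdown experiment. It was steepest with shEZH2#1, where levels were 9.54, 9.59 and 10.08 with ATRA, against 5.63, 5.62 and 5.49 without. With shEZH2#2 they were 7.89, 7.50 and 7.11 with ATRA, against 5.77, 5.60 and 5.33 without. The ATRA arrays of both hairpins lay above all arrays without ATRA, and those of shEZH2#1 above those of shEZH2#2. In Scr cells levels were 6.76, 6.72 and 6.17 with ATRA and 5.68, 5.78 and 5.76 without. In WT cells they were 7.32, 7.69 and 6.35 with ATRA and 6.09, 5.55 and 5.80 without. The control groups did not overlap either, yet none of their ATRA arrays exceeded 7.69. The log2 difference was 4.16 (standard error 0.304, adjusted p = 2.41e-11) with shEZH2#1 (17.9-fold), 1.93 (standard error 0.304, adjusted p = 6.09e-05) with shEZH2#2 (3.81-fold), 0.81 (standard error 0.304, adjusted p = 0.169) in Scr cells and 1.31 (standard error 0.304, adjusted p = 0.0171) in WT cells. The WT difference missed the threshold without WT+ATRA replicate 1 or 2 or WT replicate 2 or 3 (adjusted p of 0.0711 to 0.169), and on its 2 groups alone (adjusted p = 0.274).

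Without ATRA, EZH2 KD left PTGES at 5.58 ± 0.0764 and 5.57 ± 0.222, against 5.74 ± 0.0533 with Scr, a log2 difference of -0.17 (95% interval -0.70 to 0.37). With ATRA the log2 difference of EZH2 KD was 2.07 (standard error 0.263, adjusted p = 1.11e-05) against Scr+ATRA and 1.50 (standard error 0.263, adjusted p = 0.001) against WT+ATRA, where the arrays overlapped. The interaction of EZH2 KD with ATRA, the test of whether the knockdown changed the ATRA response, was 2.23 (standard error 0.372, adjusted p = 0.00537) against Scr and 1.74 (standard error 0.372, adjusted p = 0.0665) against WT, a comparison added after the data were seen. The first passed the test without the expression filter and the second did not. With shEZH2#1 alone the interaction against Scr was 3.35, and with shEZH2#2 alone it was 1.12 (adjusted p = 0.6). With shEZH2#2 alone the difference with ATRA was 0.95 against Scr+ATRA (adjusted p = 0.116) and 0.38 against WT+ATRA (adjusted p = 0.769). Without the 6 knockdown arrays of high median, which leaves 1 Scr array, the interaction against Scr was 2.09. Leaving out any one array kept that interaction past the threshold. In comparisons also added after the data were seen, shEZH2#1+ATRA exceeded shEZH2#2+ATRA by 2.24 (standard error 0.304, adjusted p = 6.72e-05), and the ATRA response of shEZH2#1 minus that of shEZH2#2 was 2.23, short of the threshold (adjusted p = 0.0567). EZH2 mRNA was 8.76, 9.18 and 9.18 in shEZH2#1+ATRA cells and 8.96, 9.57 and 9.64 in shEZH2#2+ATRA cells.

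PTGS1 showed its largest ATRA differences with both hairpins, and the hairpins differed by 0.30 with ATRA (95% interval -0.27 to 0.86, adjusted p = 0.973). Levels were 8.36, 8.19 and 8.20 in shEZH2#1+ATRA cells, against 5.62, 5.70 and 6.19 in shEZH2#1 cells. They were 8.84, 7.72 and 7.30 in shEZH2#2+ATRA cells, against 5.89, 4.95 and 5.68 in shEZH2#2 cells. It differed on the log2 scale by 2.42 (standard error 0.278, adjusted p = 3e-07) with shEZH2#1 (5.34-fold) and 2.45 (standard error 0.278, adjusted p = 2.64e-07) with shEZH2#2 (5.46-fold). In the controls the difference was 0.86 (standard error 0.278, adjusted p = 0.0987) for Scr and 0.96 (standard error 0.278, adjusted p = 0.0927) for WT, each without overlap of the arrays but short of the threshold. With ATRA, all 6 EZH2 KD arrays (7.30 to 8.84) lay above the Scr+ATRA arrays (5.82, 6.60 and 5.85) and the WT+ATRA arrays (6.71, 6.84 and 5.86). The log2 difference was 2.02 (standard error 0.241, adjusted p = 6.23e-06) against Scr+ATRA and 1.63 (standard error 0.241, adjusted p = 0.00013) against WT+ATRA, against 0.44 (adjusted p = 0.319) and 0.16 (adjusted p = 0.856) without ATRA. The interaction of EZH2 KD with ATRA was 1.58 (standard error 0.341, adjusted p = 0.0582) against Scr and did not reach the threshold. Fitted on the groups compared alone, the difference against WT+ATRA had an adjusted p of 0.0949 for PTGS1 and 0.085 for PTGES.

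The untreated cells of the inhibitor experiment and the WT cells of the knockdown experiment are both HL-60 cells without virus or inhibitor, yet their ATRA responses differed for PTGES. The response in WT cells minus that in untreated cells was -3.32 (standard error 0.430, adjusted p = 0.000171) log2 units. Its level without ATRA was 5.81 ± 0.267 in WT cells, against 4.48 ± 0.454 in untreated cells, and with ATRA 7.12 ± 0.690 in WT+ATRA cells, against 9.11 ± 0.699 in ATRA cells (SD, n = 3 each). For PTGS1 the same term was -0.75 (adjusted p = 0.72). Experiment and array batch cannot be told apart in this term. Fitted on its own 4 groups alone, the PTGES term had an adjusted p of 0.239.

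Markers of neutrophil maturation had a higher mean with ATRA in each of the 7 settings, but did not follow the order of PTGES. The mean log2 level of 13 measured markers (7 in the top 40%), given as values with no test, was 8.17 (arrays 7.94 to 8.48) in shEZH2#2+ATRA cells, 7.98 (arrays 7.85 to 8.06) in shEZH2#1+ATRA cells, 7.57 (arrays 7.46 to 7.72) in Scr+ATRA cells and 7.53 (arrays 7.29 to 7.70) in WT+ATRA cells. In the inhibitor experiment it was 7.86 (arrays 7.72 to 7.94) in ATRA cells, against 7.20 (arrays 7.12 to 7.30) in untreated cells, and 7.45 (arrays 7.32 to 7.60) in HKMTI-1-005 cells. It was thus highest in shEZH2#2+ATRA cells, where PTGES averaged 7.50 ± 0.389, against 9.74 ± 0.294 in shEZH2#1+ATRA cells. HKMTI-1-005 alone, where the marker mean lay above that of untreated cells, moved PTGES by -0.12 and PTGS1 by 0.24 (adjusted p = 1 for both). ITGAM, the integrin CD11b that marks myeloid maturation, was 8.80 ± 0.827 in shEZH2#2+ATRA cells, 8.10 ± 0.209 in shEZH2#1+ATRA cells, 6.50 ± 0.176 in Scr+ATRA cells and 6.84 ± 0.385 in WT+ATRA cells. Of the 6 markers below the top 40%, CXCR2, a chemokine receptor of neutrophils, had group means from 7.45 in shEZH2#2+ATRA cells down to 4.77 in Scr cells. The other 5 (LTF, MMP9, CEACAM8, FPR1 and FPR2) had means over all arrays of 4.53, 4.20, 4.44, 4.74 and 4.08. The eosinophil, basophil and mast cell list (9 measured, 1 in the top 40%) averaged 6.06 (arrays 5.73 to 6.42) in shEZH2#1+ATRA cells and 5.19 (arrays 5.10 to 5.35) in shEZH2#2+ATRA cells. Without ATRA, where PTGES averaged 5.58 and 5.57, it was 6.42 (arrays 6.18 to 6.58) in shEZH2#1 cells and 5.32 (arrays 5.26 to 5.38) in shEZH2#2 cells, also without overlap. Of this list CLC, PRG2, EPX, GATA2 and RNASE2 had their highest group means in shEZH2#1 cells, with or without ATRA. IL5RA, CPA3, HDC and FCER1A had means over all arrays of 4.20, 4.48, 4.135 and 4.43. The part of these cell states in the results was not tested.

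PTGS2, the inducible cyclooxygenase, ran the other way and varied widely between arrays of a group. With shEZH2#1 its levels were 7.92, 7.04 and 7.14 with ATRA, against 10.56, 9.19 and 8.24 without. With shEZH2#2 they were 8.19, 7.61 and 7.99 with ATRA, against 9.95, 9.64 and 9.55 without. The arrays did not overlap in either pair, and PTGS2 was called lower with ATRA in both, with log2 differences of -1.96 (standard error 0.532, adjusted p = 0.0223) and -1.78 (standard error 0.532, adjusted p = 0.0444). The shEZH2#1 call was lost without replicate 2 or 3 of shEZH2#1+ATRA or replicate 1 or 2 of shEZH2#1 (adjusted p of 0.0531 to 0.239), and the shEZH2#2 call without any one array (adjusted p of 0.0794 to 0.148). Without the 6 arrays of high median, shEZH2#1 replicate 1 among them, the shEZH2#1 difference was -1.35. In the other 5 settings the log2 difference lay between -1.04 and -0.47, below 0 in each, and no adjusted p passed. In the inhibitor experiment the array numbered 3 stood against the others: ATRA levels were 7.41, 8.03 and 8.97, against 9.26, 8.84 and 8.33 in untreated cells.

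PTGS2 was called higher in EZH2 KD than in Scr cells, by 1.70 (standard error 0.461, adjusted p = 0.0312), with overlapping arrays. Levels were 10.56, 9.19 and 8.24 with shEZH2#1 and 9.95, 9.64 and 9.55 with shEZH2#2, against 7.98, 6.73 and 8.74 with Scr and 10.04, 8.70 and 9.00 in WT cells. The Scr group lay lowest. EZH2 KD differed from WT by 0.28 (95% interval -0.66 to 1.21), and Scr from WT by -1.43 (adjusted p = 0.0724). With ATRA, levels were 6.49, 6.17 and 7.68 in Scr+ATRA cells, against 9.21, 8.49 and 8.64 in WT+ATRA cells, for a log2 difference of -2.00 (adjusted p = 0.077). Neither hairpin alone passed against Scr (adjusted p = 0.111 for shEZH2#1 and 0.0615 for shEZH2#2). Without the 6 arrays of high median, which leaves 1 Scr array, the log2 difference was 0.49. The call ended without Scr replicate 1 or 2, shEZH2#1 replicate 1 or shEZH2#2 replicate 1 (adjusted p of 0.0653 to 0.408).

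TBXAS1, thromboxane synthase, was the one gene of the 9 that passed the test for HKMTI-1-005. Levels were 5.29, 5.56 and 5.49 with HKMTI-1-005, against 4.89, 4.79 and 4.84 in untreated cells. With ATRA they were 5.99, 5.83 and 5.68 with HKMTI-1-005+ATRA, against 4.96, 5.14 and 4.88 with ATRA alone. All 6 HKMTI-1-005 arrays lay above the other 12 arrays of the experiment. The log2 difference was 0.61 (standard error 0.105, adjusted p = 0.00403) without ATRA and 0.84 (standard error 0.105, adjusted p = 1.19e-05) with ATRA, both past the test without the expression filter. Fitted on the 2 groups compared alone, both missed the threshold (adjusted p = 0.0909 without and 0.0514 with ATRA). Under GSK343, at a different dose, levels were 4.80, 5.06 and 5.02 with ATRA and 4.84, 4.76 and 5.04 without. HKMTI-1-005 exceeded GSK343 by 0.57 (standard error 0.105, adjusted p = 0.00773) alone and by 0.87 (standard error 0.105, adjusted p = 7.69e-06) with ATRA, but the first of these missed the threshold without GSK343 replicate 2 or HKMTI-1-005 replicate 3 (adjusted p of 0.0756 to 0.0966) and on its 2 groups alone (adjusted p = 0.12). ATRA added 0.39 (standard error 0.105, adjusted p = 0.035) to HKMTI-1-005, which missed the threshold without HKMTI-1-005 replicate 1 or 3 or HKMTI-1-005+ATRA replicate 1 or 2 (adjusted p of 0.0632 to 0.255) and on its 2 groups alone (adjusted p = 0.106). In the knockdown experiment the 8 group means lay between 5.06 and 5.24, and EZH2 KD differed from Scr by 0.12 (95% interval -0.061 to 0.31). Single arrays there reached 5.40 (Scr+ATRA), inside the range of the HKMTI-1-005 arrays. The mean of TBXAS1 was below the median gene mean of 5.68, and the mean of 7 measured platelet markers stayed between 4.63 and 4.74 in all 14 groups. The mean of 7 measured monocyte and macrophage markers (2 in the top 40%) was 6.54 (arrays 6.41 to 6.70) with HKMTI-1-005. In untreated cells it was 6.33 (arrays 6.26 to 6.455). With HKMTI-1-005+ATRA it was 6.49 (arrays 6.425 to 6.53), against 6.63 (arrays 6.44 to 6.82) with ATRA alone. The part of such cell states in the TBXAS1 result was not tested.

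**Figure D2:**
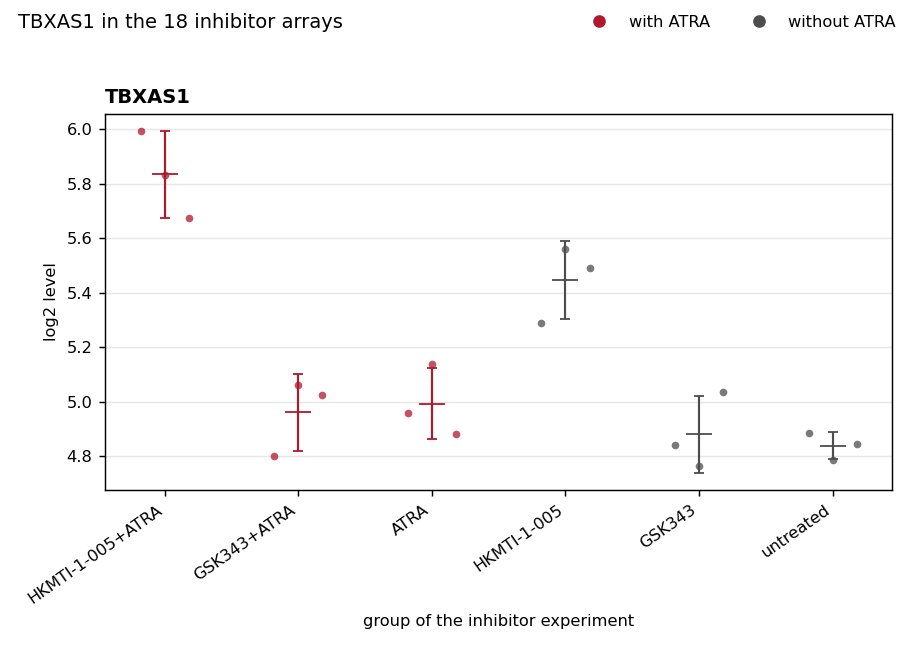
Log2 level (y axis) of TBXAS1 in the 18 arrays of the inhibitor experiment by group (x axis); points are arrays, bars the mean ± SD (n = 3), and red marks ATRA. The 6 arrays with HKMTI-1-005 lie between 5.29 and 5.99 and the other 12 between 4.76 and 5.14.

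ALOX5AP, the membrane protein that presents arachidonic acid to 5-lipoxygenase, was called higher with ATRA in all 7 settings. Levels were 13.24, 13.30 and 12.96 in ATRA cells, against 11.95, 12.06 and 11.97 in untreated cells. With shEZH2#1 they were 13.32, 13.28 and 13.40 with ATRA, against 11.77, 11.69 and 12.41 without. In WT cells they were 13.29, 13.35 and 12.83 with ATRA, against 12.53, 12.35 and 12.47 without. With Scr they were 13.11, 13.35 and 12.94 with ATRA, against 11.84, 11.70 and 12.64 without, and with shEZH2#2 13.41, 13.29 and 13.45 with ATRA, against 12.22, 11.55 and 12.31 without. Every ATRA array lay above every array without ATRA of its own setting, in 7 of 7 settings. The log2 difference ran from 0.71 (standard error 0.187, adjusted p = 0.0491) in WT cells to 1.38 (standard error 0.187, adjusted p = 6.25e-06) with shEZH2#1, and was 1.18 (standard error 0.187, adjusted p = 8.02e-05) without inhibitor or virus and 1.07 (standard error 0.187, adjusted p = 0.00064) with Scr. The WT call ended without any one array other than WT+ATRA replicate 3 (adjusted p of 0.0943 to 0.213). Without the 6 arrays of high median, which leaves 1 Scr array, the Scr difference was 0.59. Group means with ATRA lay between 13.13 and 13.39. EZH2 KD+ATRA differed from Scr+ATRA by 0.23 (95% interval -0.10 to 0.56).

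ALOX5, the enzyme itself, rose with ATRA in the inhibitor experiment by 0.76 (standard error 0.240, adjusted p = 0.0432) without inhibitor and 0.77 (standard error 0.240, adjusted p = 0.0465) with GSK343. Levels were 8.46, 8.44 and 7.94 in ATRA cells, against 7.66, 7.05 and 7.84 in untreated cells. The gap between the groups was narrow, and the calls were lost without replicate 1 or 2 of ATRA or untreated (adjusted p of 0.0696 to 0.317), on those 2 groups alone (adjusted p = 0.0644), and without any one array of the GSK343 pair other than GSK343+ATRA replicate 3 (adjusted p of 0.0723 to 0.203). With HKMTI-1-005 the difference was 0.57 (standard error 0.240, adjusted p = 0.289). In the knockdown experiment it lay between -0.13 (shEZH2#1) and 0.55 (WT), with no adjusted p past the threshold. There the hairpins differed from each other instead. Levels were 7.68, 7.87 and 6.93 in shEZH2#1+ATRA cells and 8.97, 8.83 and 8.72 in shEZH2#2+ATRA cells, a log2 difference of -1.35 (standard error 0.240, adjusted p = 0.00232) in a comparison added after the data were seen. It missed the threshold without shEZH2#1+ATRA replicate 3 (adjusted p = 0.0542). Without ATRA they were 7.48, 7.72 and 7.67 with shEZH2#1 and 8.84, 8.21 and 8.74 with shEZH2#2, for a log2 difference of -0.97 (standard error 0.240, adjusted p = 0.0629). ALOX5 was the lower, and PTGES the higher, in shEZH2#1+ATRA cells.

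LTA4H, which makes leukotriene B4, was called with ATRA in no setting. Its log2 difference lay between -0.18 (WT) and 0.50 (Scr), with no adjusted p below 0.128, while 2 of the 7 reached an unadjusted p under 0.05. Over the 14 groups its mean lay between 10.68 (Scr) and 11.55 (WT). Its calls were against WT cells. Levels were 10.39, 10.40 and 11.26 with Scr, against 11.56, 11.56 and 11.54 in WT cells, a log2 difference of -0.87 (standard error 0.175, adjusted p = 0.00243). The WT arrays were tightly grouped, and the low Scr values came from replicates 1 and 2, both arrays of high median. Without the 6 such arrays, which leaves 1 Scr array, the log2 difference was -0.29. Between EZH2 KD and WT the log2 difference was -0.66 (standard error 0.152, adjusted p = 0.0429). That call was lost without any one WT array, shEZH2#1 replicate 1 or shEZH2#2 replicate 2 (adjusted p of 0.116 to 0.185). It held with shEZH2#1 alone but not with shEZH2#2 alone (-0.48, adjusted p = 0.312), nor on the groups compared alone (adjusted p = 0.371).

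**Figure D3:**
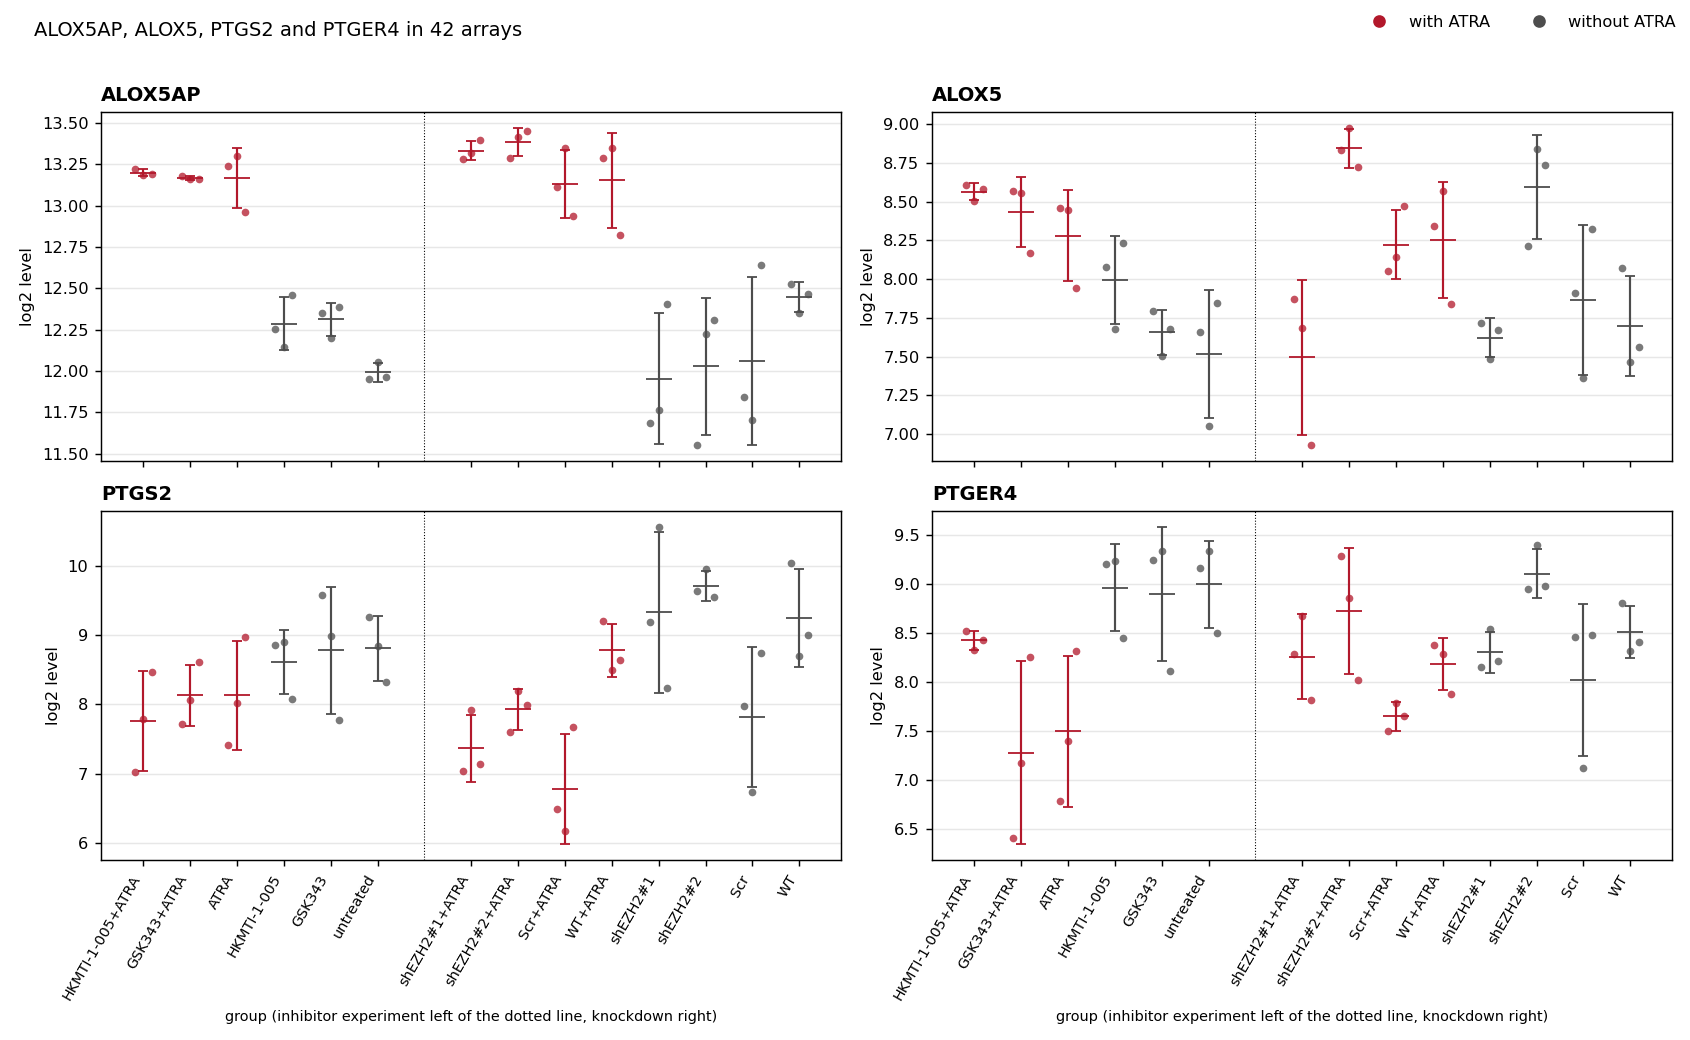
Log2 level (y axes, 1 scale per gene) of ALOX5AP, ALOX5, PTGS2 and PTGER4 in each of the 42 arrays by group (x axis), inhibitor arrays left of the dotted line; points are arrays, bars the mean ± SD (n = 3), and red marks ATRA. ALOX5AP separates with and without ATRA in all 7 settings, whereas PTGS2 and PTGER4 overlap in most.

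Of the receptors, PTGER4 was called lower with ATRA in 2 settings, and PTGER2 in none. PTGER4 levels were 6.79, 7.40 and 8.31 in ATRA cells, against 9.16, 9.33 and 8.49 in untreated cells, and 6.41, 7.18 and 8.26 in GSK343+ATRA cells, against 9.24, 9.34 and 8.11 in GSK343 cells. In both pairs replicates 1 and 2 with ATRA lay far below all arrays without it, and the ATRA arrays numbered 3, at 8.31 and 8.26, lay close to or above the array numbered 3 without ATRA. The log2 difference was -1.50 (standard error 0.403, adjusted p = 0.0156) and -1.62 (standard error 0.403, adjusted p = 0.0105). The GSK343 call was lost on its 2 groups alone (adjusted p = 0.101). Each call was lost without replicate 1 or 2 of either of its groups (adjusted p of 0.0582 to 0.169 without inhibitor and 0.0521 to 0.147 with GSK343). With HKMTI-1-005 levels were 8.52, 8.32 and 8.43 with ATRA, against 9.20, 9.24 and 8.45 without, for a log2 difference of -0.54 (standard error 0.403, adjusted p = 0.733). The HKMTI-1-005+ATRA arrays lay above all ATRA arrays, but narrowly (lowest 8.32, against a highest of 8.31). The log2 difference was 0.92 (95% interval 0.10 to 1.74, adjusted p = 0.368), and the interaction of HKMTI-1-005 with ATRA was 0.96 (adjusted p = 1). In the 4 knockdown settings the ATRA difference lay between -0.38 and -0.042, with no call. With ATRA, EZH2 KD exceeded Scr by 0.84 without overlap (adjusted p = 0.194), from levels of 8.68, 8.28 and 7.82 in shEZH2#1+ATRA cells and 8.86, 9.28 and 8.02 in shEZH2#2+ATRA cells, against 7.50, 7.79 and 7.66 in Scr+ATRA cells.

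PTGER2 ranged only from 8.73 ± 0.319 in Scr cells to 9.51 ± 0.131 in shEZH2#2 cells (SD, n = 3 each). It was called between Scr (8.60, 8.49 and 9.09) and WT (9.52, 9.49 and 9.26), with a log2 difference of -0.70 (standard error 0.189, adjusted p = 0.0162). Again Scr replicates 1 and 2 were the low arrays. Without the 6 arrays of high median, which leaves 1 Scr array, the difference was -0.33. The call ended without replicate 1 or 2 of Scr or of WT (adjusted p of 0.0561 to 0.144). Its ATRA differences lay between -0.29 and 0.53, none past the test.

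**Figure D4:**
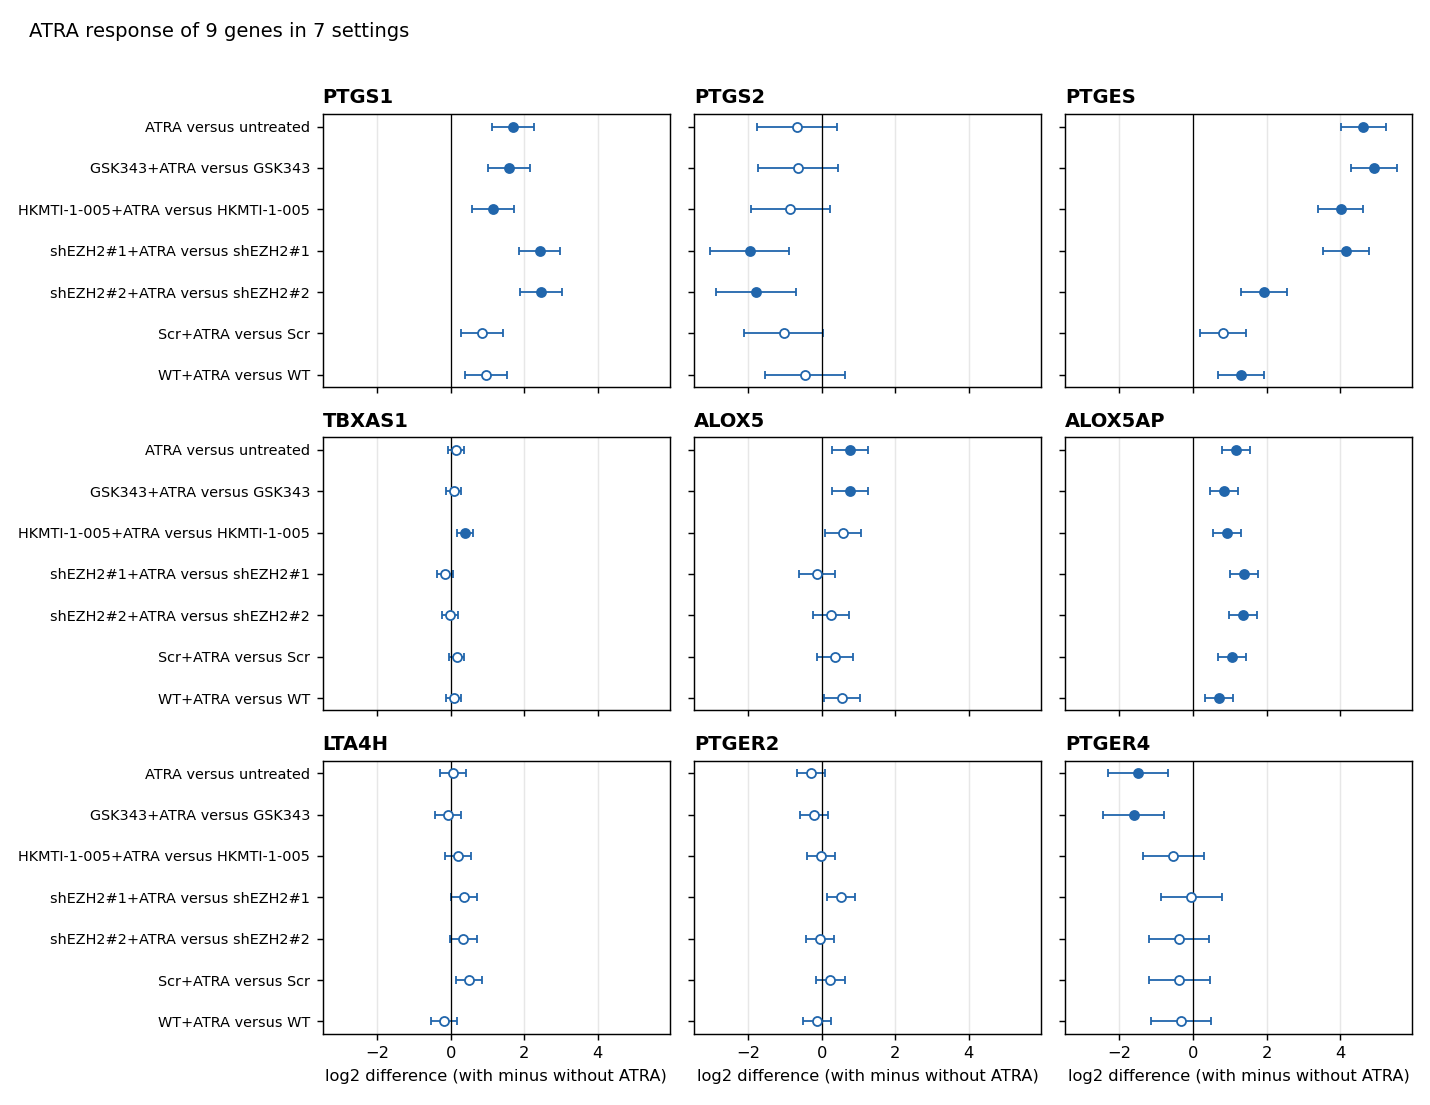
Log2 difference with minus without ATRA (x axis) of 9 genes in 7 settings (y axis), with 95% intervals from the limma fit; filled points pass an adjusted p of 0.05 and a fold of 1.3 without the expression filter, open points do not. ALOX5AP is filled in 7 of 7 settings, PTGES in 6, PTGS1 in 5, and LTA4H and PTGER2 in none.

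Counted over the genes, ATRA against untreated cells called 3 of the 6 members in the top 40% (2 higher, 1 lower), against 13.1% of the genes there, and 5 of 9 passed without the expression filter, against 7.29% of all genes. With GSK343 the counts were 3 of 6 (background 10.4%) and 5 of 9 (6.07%), and with HKMTI-1-005 1 of 6 (4.05%) and 4 of 9 (2.71%). With shEZH2#1 they were 2 of 6 (8.65%) and 4 of 9 (4.91%), and with shEZH2#2 2 of 6 (8.36%) and 4 of 9 (4.66%). Scr cells gave 1 of 6 (4.98%) and 1 of 9 (2.57%), and WT cells 1 of 6 (2.13%) and 2 of 9 (1.32%). The median log2 difference over the 9 genes was 0.15 for ATRA against untreated cells, against 0.0046 over all genes. The 7 ATRA settings use separate arrays, whereas several comparisons below share arrays, such as the Scr and WT controls.

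The inhibitors gave few or no members. Without the expression filter GSK343 against untreated cells gave 0 of 9 (0.0217% of all genes), GSK343+ATRA against ATRA 0 of 9 (0.0163%), HKMTI-1-005 against untreated cells 1 of 9 (0.223%) and HKMTI-1-005+ATRA against ATRA 1 of 9 (0.619%), in both cases TBXAS1. HKMTI-1-005 against GSK343 gave TBXAS1 alone too, without ATRA (0.391%) and with it (0.966%). EZH2 KD against Scr called 1 of 6 (6.12%) and passed 1 of 9 without the filter (3.25%), and against WT 1 of 6 (0.407%) and 1 of 9 (0.342%). EZH2 KD+ATRA passed 2 of 9 without the filter against Scr+ATRA (3.02%) and 2 of 9 against WT+ATRA (1.89%), PTGES and PTGS1 in both. Scr against WT called 2 of 6 (21.6%), 2 of 9 without the filter (10.9%), and Scr+ATRA against WT+ATRA gave 0 of 9 (0.548%).

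The tests of differences between responses passed for PTGES alone or for no member. Of 9 genes, 0 passed for the interaction of GSK343 with ATRA (0% of all genes) and of HKMTI-1-005 with ATRA (0.00543%). The interaction of EZH2 KD with ATRA passed for 1 of 9 (0.0814%) and the WT minus untreated term for 1 of 9 (0.0217%). Among the comparisons added later, EZH2 KD with ATRA against WT gave 0 of 9 (0.0706%), the ATRA response of shEZH2#1 minus shEZH2#2 0 of 9 (0.0163%) and shEZH2#1 against shEZH2#2 0 of 9 (0.396%). With ATRA the hairpins differed in 1 of 6 (0.448%) and 2 of 9 without the filter (0.391%), ALOX5 and PTGES. At an unadjusted limma p under 0.05, the comparisons with no member held 0 of 9 for GSK343 against untreated cells (745 of all 18417 genes). GSK343+ATRA against ATRA held 0 (631 genes) and Scr+ATRA against WT+ATRA 1 (1675). The interactions of GSK343 and HKMTI-1-005 with ATRA held 0 (294) and 0 (760). The interaction of EZH2 KD with ATRA against WT held 5 (1087). The ATRA response of shEZH2#1 minus shEZH2#2 held 2 (603), and shEZH2#1 against shEZH2#2 held 3 (1748). The methods' t-test with Benjamini-Hochberg adjustment gave 0 members in every comparison it could make. Of 7367 genes in the top 40% it called 8 for ATRA against untreated cells, 0 with GSK343 and 13 with HKMTI-1-005. Counts of 0 members are near these shares, and nothing is read from them.

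**Figure D5:**
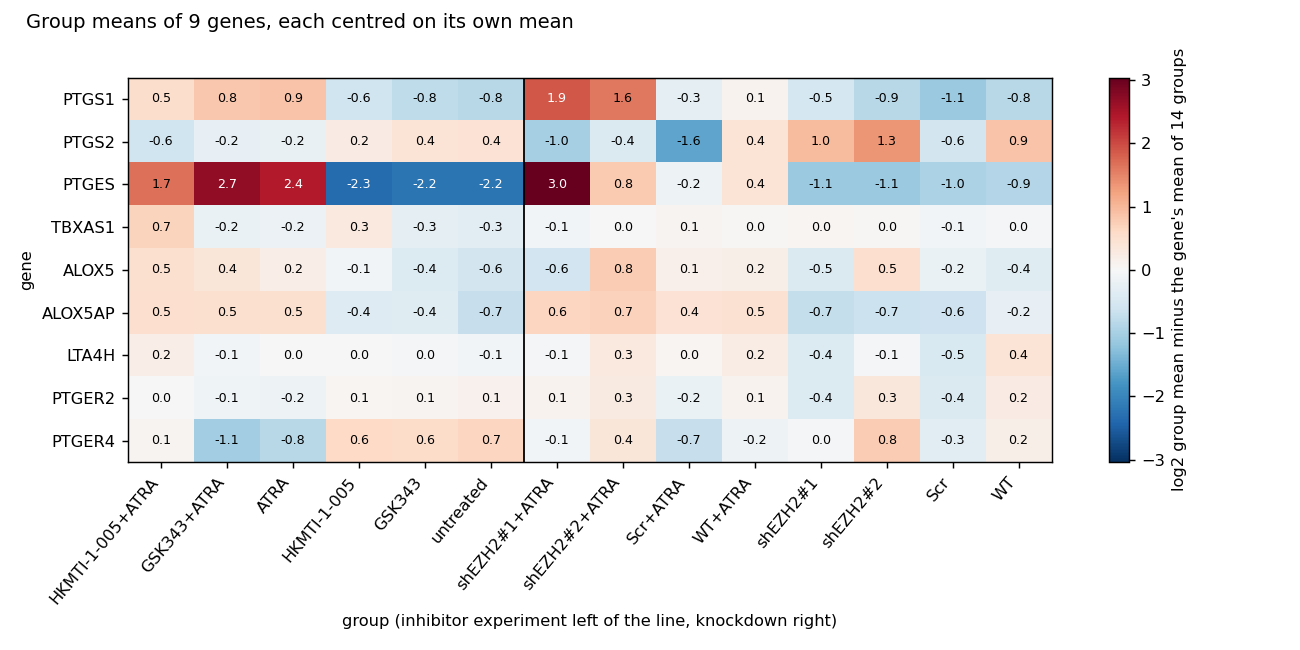
Group means of 9 genes (y axis) in 14 groups (x axis), each gene centred on its own mean of the 14 group means; red is above and blue below that mean, in log2 units, and numbers give the value. PTGES is 3.04 in shEZH2#1+ATRA cells and -2.34 in HKMTI-1-005 cells.

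Across the 14 groups the means of PTGES, PTGS1 and ALOX5AP ran together. Pearson's r of group means was 0.864 between PTGES and PTGS1, 0.837 between PTGES and ALOX5AP and 0.865 between PTGS1 and ALOX5AP. ALOX5, called higher with ATRA in 2 settings, ran with them less closely, with r of 0.37 with PTGES, 0.359 with PTGS1 and 0.491 with ALOX5AP. PTGS2 and PTGER4 had r from -0.674 (PTGES and PTGER4) to -0.364 (PTGS1 and PTGER4) with the first 3 genes, but -0.158 and -0.159 with ALOX5. The 14 points share the ATRA contrast and, within an experiment, the array batches, so these values describe the groups only. Among genes in the top 40%, the group means most like those of PTGES were of PRKAR1A (r = 0.978), ACSL1 (0.947), VASP (0.944), MYO1C (0.94) and FGD3 (0.94). Those most like PTGS1 were of OS9 (0.984), GCA (0.978), GUSB (0.975), IFI6 (0.971) and PROS1 (0.969), and those most like PTGS2 of COASY (0.946), MAP2K1 (0.935), CCL3 (0.924), EMILIN2 (0.921) and C16orf87 (0.916). When the groups were put in order of their mean, the arrays of neighbouring groups failed to overlap at 4 of 13 steps for PTGES (below HKMTI-1-005+ATRA, Scr+ATRA, Scr and shEZH2#2), 3 for ALOX5AP, 2 for LTA4H and 1 for TBXAS1, and at no step for the other 5 genes.

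A wider list of eicosanoid genes held 53 measured genes, 13 of them in the top 40%. ATRA against untreated cells called 1 of the 13 higher and 2 lower, against 13.1% of all genes in the top 40%, and the median log2 difference over the 53 was 0.0064, against 0.0046 over all genes. The gene called higher was ABCC1, an exporter of leukotriene C4, at a log2 difference of 1.18 (adjusted p = 0.00291). ABCC1 was also higher with ATRA under GSK343 (1.01, adjusted p = 0.0124), HKMTI-1-005 (1.10, adjusted p = 0.0106), shEZH2#1 (0.95, adjusted p = 0.0221) and shEZH2#2 (0.89, adjusted p = 0.0365), and was not called in Scr or WT cells. ACSL4, which activates arachidonic acid for storage in membranes, was called lower with ATRA alone (-0.79, adjusted p = 5.39e-05), under GSK343 (-0.62, adjusted p = 0.00125), HKMTI-1-005 (-0.53, adjusted p = 0.00815) and shEZH2#2 (-0.54, adjusted p = 0.00538). ABCC4, an exporter of prostaglandins, was lower with ATRA alone (-0.63, adjusted p = 0.00673) and with GSK343 (-0.56, adjusted p = 0.0184). With GSK343 the list gave 1 of 13 higher and 4 lower (background 10.4%). There PLA2G4A, the cytosolic phospholipase that frees arachidonic acid, was lower with overlapping arrays (-0.94, adjusted p = 0.0377), and so was MGST3, a microsomal glutathione transferase (-0.51, adjusted p = 0.0399).

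Between knockdown groups the list gave 1 of 13 higher for EZH2 KD against Scr (background 6.12%), MGST3 (0.60, adjusted p = 0.0106). It gave 1 of 13 higher for EZH2 KD+ATRA against WT+ATRA (background 3.28%), again MGST3 (0.57, adjusted p = 0.016), with overlapping arrays. Counts of 1 are near these shares, and nothing is read from them. PPARG, a nuclear receptor that binds prostaglandin derivatives, was called lower for EZH2 KD+ATRA against Scr+ATRA (-0.71, adjusted p = 0.0181), where the background was 5.38%. Scr against WT called 4 of 13 lower and none higher, where 21.6% of all genes in the top 40% were called, 1355 of these 1588 lower. The 4 were LPCAT3 (-1.24, adjusted p = 0.0265), PPARG (-0.62, adjusted p = 0.042), GPX4 (-0.54, adjusted p = 0.0303) and MGST1 (-0.54, adjusted p = 0.0318). The arrays of PPARG and GPX4 overlapped there. Below the filter, CYP4F3, the hydroxylase that inactivates leukotriene B4 in neutrophils, was higher with ATRA alone (0.76, adjusted p = 0.000537) and with shEZH2#1 (0.89, adjusted p = 5.84e-05). HPGD, the dehydrogenase that inactivates prostaglandin E2, was higher for EZH2 KD against Scr (1.02, adjusted p = 0.000846) and lower with ATRA under GSK343 (-0.70, adjusted p = 0.0261). These below-filter genes were chosen after their values were seen.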

How the data were processed

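Each of 42 HL-60 RNA samples was hybridized to 1 Affymetrix array (Human Gene 1.0 ST). The deposited values are 1 log2 value per probe set and array. Per the labels and the study's methods, the authors normalized the arrays by GC-RMA in Partek Genomics Suite and removed batch and date variation with a Partek function; no source used here names the versions or the batches, and that the scale is log2 was read from the range of the values (3.18 to 14.5, median 5.4). A batch removed in this way can narrow or shift differences between groups that lay in different batches. The number of arrays limits the precision.

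Of 33297 probe sets, 19460 had 1 gene symbol, 1754 several and 12083 none in the platform annotation used. The brightest probe set with 1 symbol stood for each of 18417 genes. Groups followed the sample titles and labels. A limma fit (version 3.58.1, R 4.3.3) of group means over all 42 arrays gave 27 contrasts, of which 4 were added after the data were seen, with Benjamini-Hochberg adjustment over 18417 genes within each contrast. A call needed an adjusted p of 0.05 or less, a fold of 1.3 or more and a mean in the top 40%, after the study's methods. The fit was tested on simulated data. The members and the gene lists were chosen with earlier results of these data known. Named beside the members were those of the wider list called in a comparison (at most 6 by size of difference), the 5 genes of the top 40% whose group means correlated best with each of the 3 members of widest range, EZH2 and ITGAM; others are marked as chosen after their values were seen. Alternatives were the arrays in the fit, the replicate block, scaling, the filters, the probe set rule, the test and each array left out in turn. Promoter windows came from RefSeq (GRCh38.p14).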

Additional observations from a re-analysis of the deposited data

Results flagged for a closer look

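The response of PTGES to ATRA differed between groups in 2 of 6 tests of such a difference. The interaction of EZH2 KD with ATRA against Scr was 2.23 on the log2 scale (limma, standard error 0.372, adjusted p = 0.00537), without the expression filter. It was 1.12 with shEZH2#2 alone (adjusted p = 0.6) and 2.09 without the 6 knockdown arrays of high median, a fit that leaves 1 Scr array. The shEZH2#1+ATRA arrays lay between 9.54 and 10.08 and the shEZH2#2+ATRA arrays between 7.11 and 7.89. Those of Scr+ATRA cells lay between 6.17 and 6.76, and those of WT+ATRA cells between 6.35 and 7.69. The ATRA response of WT cells minus that of untreated cells was -3.32 (adjusted p = 0.000171), also without the expression filter, and had an adjusted p of 0.239 on its own 4 groups. The level with ATRA was 7.12 ± 0.690 in WT+ATRA cells, against 9.11 ± 0.699 in ATRA cells (SD, n = 3 each). The experiment, and the removal of batch and date by the authors, cannot be told apart from the group in the second term. The other 4 missed the threshold: EZH2 KD with ATRA against WT (1.74, adjusted p = 0.0665), shEZH2#1 minus shEZH2#2 (2.23, adjusted p = 0.0567), and GSK343 and HKMTI-1-005 with ATRA (0.29 and -0.62, adjusted p = 1 for both).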

How the results depend on the processing

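All values here are from limma unless named otherwise. Over 848 alternative values of member differences, 0 reversed, 684 stayed on the same side of the threshold and 164 lost it. These cover the 41 differences that passed in the main fit without the expression filter, so gains could not appear. Dropping the filter, the top 20% and no fold threshold could not end such a pass. Their values are among the 684. The fit without the 6 arrays of high median, which leaves 1 Scr array, is counted too. Counts of members called moved as follows, the main count, of 6 in the top 40%, standing in brackets. Without an expression filter the count, now of all 9 genes, was 5 for ATRA against untreated [3], 5 with GSK343 [3], 4 with HKMTI-1-005 [1], 2 in WT [1], 4 with shEZH2#1 [2] and 4 with shEZH2#2 [2], 1 for HKMTI-1-005 against untreated [0], against GSK343 [0] and, with ATRA, against ATRA [0] and GSK343+ATRA [0], 2 for EZH2 KD+ATRA against Scr+ATRA [0] and WT+ATRA [0], 1 for the EZH2 KD by ATRA interaction [0] and the WT minus untreated response [0], and 2 for shEZH2#1+ATRA against shEZH2#2+ATRA [1]. Of the members in the top 20% it was 1 for ATRA, GSK343, shEZH2#1 and shEZH2#2 and 0 for EZH2 KD against Scr and the hairpins with ATRA. A fold of 2 gave 2 for ATRA, 1 with GSK343 and 0 with HKMTI-1-005, in WT, and for EZH2 KD and Scr against WT.

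With 1 fit per experiment it was 0 in WT, 1 with shEZH2#2, 0 for EZH2 KD against Scr and against WT, and 1 for Scr against WT [2]. With only the groups compared it was 2 for ATRA against untreated [3], losing ALOX5 (adjusted p = 0.0644), 2 with GSK343 [3], losing PTGER4 (0.101), 0 in WT and Scr [1], 1 with shEZH2#1, losing PTGS2 (0.121), and 0 for EZH2 KD against Scr and WT, Scr against WT and the hairpins with ATRA. Centring on array medians gave 2 for ATRA and for GSK343, losing ALOX5 in both, 0 in WT, 3 for Scr against WT, 1 with shEZH2#2 and 0 for EZH2 KD against WT, and quantile normalization 2 for shEZH2#1 against shEZH2#2 [0]. With the array median as covariate it was 0 for EZH2 KD against Scr and for Scr against WT, 3 for shEZH2#1 against shEZH2#2 and 2 for them with ATRA. Without the 6 arrays of high median it was 1 with shEZH2#1 and 1 for Scr+ATRA against WT+ATRA [0]. Counts that use Scr cells without ATRA are not given there, as 1 Scr array is left. EZH2 KD against Scr gave 0 with shEZH2#1 alone and EZH2 KD against WT 0 with shEZH2#2 alone. The unpaired t-test, which the study's array methods do not name, gave 0 after Benjamini-Hochberg in every comparison it could make. It called 8 of all 7367 genes in the top 40% for ATRA against untreated. PTGES against untreated had an adjusted p of 0.0681 in this t-test. The causes were not tested.

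The replicate block gave 2 for ATRA against untreated and with GSK343 [3], 0 in WT and 0 for EZH2 KD against WT; it ended the calls of ALOX5 with ATRA (adjusted p = 0.0523) and with GSK343 (0.0567), of ALOX5AP in WT (0.0585), of LTA4H for EZH2 KD against WT (0.0546) and of TBXAS1 with ATRA under HKMTI-1-005 (0.054), and no other. Samples of the same number correlated on average by 0.0333 (from -0.682 to 0.711) in the inhibitor experiment. In the knockdown experiment the mean was -0.0142 (from -0.749 to 0.705). Of the arrays, 10 of 18 and 10 of 24 correlated best with their own number. Because the correlations ran to both signs, their mean cannot decide whether the numbers pair the samples. With single arrays left out, the counts ranged from 1 to 3 for ATRA and for GSK343, 1 to 1 for HKMTI-1-005, 0 to 1 for WT and 1 to 2 for Scr. They ranged from 1 to 2 for shEZH2#1, 1 to 1 for shEZH2#2, 0 to 3 for EZH2 KD against Scr and 0 to 1 for EZH2 KD against WT. Scr against WT gave 1 to 4. For HKMTI-1-005+ATRA against GSK343+ATRA and the hairpins without and with ATRA they ranged from 0 to 1. Of all 7367 genes in the top 40%, calls then ranged from 433 to 1075 for ATRA [963], 306 to 1057 for GSK343 [767] and 59 to 2224 for EZH2 KD against Scr [451]. They ranged from 5 to 64 for EZH2 KD against WT [30] and from 178 to 3236 for Scr against WT [1588]. Over all genes, the share higher among calls was 51.9% after quantile normalization [40%] for ATRA, 46.6% [32.2%] for GSK343, 32.8% [51.8%] for HKMTI-1-005+ATRA against ATRA, 53.1% [75.7%] and 53.7% [72.7%] for the hairpins without and with ATRA, and after centring 90.6% [80%] for EZH2 KD against Scr, 73.3% [63.1%] with ATRA and 4.21% [14.7%] for Scr against WT.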
